A study of Danio rerio with 16 samples.

Results

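Heat shock proteins and their co-chaperones were examined as a group of 87 genes in zebrafish larvae that carried or lacked a functional klf9 gene and that had developed with or without added cortisol. The members were all genes whose symbol begins with hsp90, hsp70, hspa, hspb, hspd1, hspe1, dnaja, dnajb or dnajc and whose mean over the samples was at least 5 normalized counts. Of 22994 genes in the deposited table, 88 carried such a symbol, and DNAJB13, with a mean of 4.88 normalized counts, was left out for its low value. The 87 members comprised 4 Hsp90 genes, 11 Hsp70 genes, 4 genes of the divergent HSPA12 type, 3 genes of the Hsp110 type (HSPA4 and HSPA4L), the chaperonin genes HSPD1 and HSPE1, 10 small heat shock protein genes, and 51 J-domain genes (6 DNAJA, 13 DNAJB and 32 DNAJC). HSPBP1 and HSPBAP1, which encode proteins that bind heat shock proteins, entered by their prefix alone.

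RNA-seq was performed on 16 samples of 10 whole larvae at 5 days post fertilization (dpf), 4 samples in each of 4 conditions. Wild-type (WT) larvae of the AB strain and larvae homozygous for a 2-bp frameshift deletion in exon 1 of klf9 (klf9-/-) were each given 1 µM cortisol from 4 h post fertilization or the DMSO vehicle, under 14 h of light and 10 h of dark. Per the paper, WT and klf9-/- larvae came from sibling parents, in a line that went back to 1 founder female with the deletion. Each condition was raised in 1 dish, so p-values measure the spread between samples of a dish, which may be technical. Collection took place 3 h after lights-on and within 22 min. Replicates 1 and 2 were processed on day 1, when all 8 samples stood in lysis buffer before homogenization began, and replicates 3 and 4 on day 2, when homogenization followed at once. The replicate numbers therefore carry the preparation day, and the day cannot be told apart from the order in which the samples were taken.

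Molecular chaperones bind unfolded or partly folded proteins and let them fold, assemble or be passed on for degradation. Hsp70 works as an ATP-driven clamp that J-domain proteins load with clients and that nucleotide exchange factors such as the Hsp110 proteins reopen. Hsp90 acts later, on nearly mature clients. The glucocorticoid receptor, which binds cortisol, is a classic client: Hsp70 with a J-domain partner first holds it, the adaptor STIP1 (Hop) hands it to Hsp90, and the Hsp90 complex, with p23 and immunophilins such as FKBP4 and FKBP5, keeps it able to bind hormone. Separate chaperones serve the endoplasmic reticulum (ER; HSPA5 and HSP90B1) and the mitochondria (HSPA9, HSPD1 and HSPE1), and the inducible Hsp70 genes are transcribed under proteotoxic stress through heat shock factor 1.

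Values are normalized counts, as the authors scaled them, with identical sorted values and a sum of 14653434 in every sample. They are not divided by gene length, so levels are compared between samples and not between genes. Differences are log2 differences from limma, fitted with condition means and a term for the preparation day, and "called" means a Benjamini-Hochberg adjusted p under 0.05 over the 21511 genes tested. The labels were checked on klf9 itself, whose transcript was at 233 ± 47.2 (SD, n = 4) normalized counts in vehicle-treated WT larvae and at 106 ± 23.7 (SD, n = 4) in vehicle-treated klf9-/- larvae, a log2 difference of -1.14 (SE 0.18, limma adjusted p = 0.00967). Cortisol raised klf9 in WT larvae to 383.8 ± 85.4 (SD, n = 4), by 0.72 on the log2 scale (SE 0.18, limma adjusted p = 0.0304). Markers of muscle, lens, neurons, liver, exocrine pancreas, erythrocytes, skin, macrophages and neutrophils were all present, which fits whole larvae. In such bulk samples fewer cells of a type and less RNA per cell cannot be told apart.

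With cortisol 11 of the 87 members fell in WT larvae and 1 rose. Across all genes tested, 8.65% were called, 4.66% higher and 3.99% lower, so that the share of members that fell, 12.6%, was above the background and the share that rose, 1.15%, below it. The median log2 difference was -0.078 over the members and -0.031 over all genes. Most of the members that fell belong to the Hsp90, Hsp70 and Hsp110 classes: 2 of 4 Hsp90 genes, 3 of 11 Hsp70 genes and 2 of 3 Hsp110 genes fell, together with 1 of the 2 chaperonin genes. Only 1 of 6 DNAJA and 2 of 32 DNAJC genes fell, and none of the 13 DNAJB and 10 small heat shock protein genes was called in either direction.

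Both cytosolic Hsp90 alpha genes fell. The gene hsp90aa1.1, which in zebrafish muscle is needed for the folding of myosin, had 2216, 2067, 1820 and 2140 normalized counts in WT replicates 1 to 4 with vehicle and 1025, 1092, 1315 and 1400 with cortisol. No cortisol-treated WT sample reached the lowest vehicle-treated one. The fitted log2 difference was -0.78, which is 41.7% lower on the linear scale (SE 0.14, limma adjusted p = 0.00713). HSP90AA1 (ENSDARG00000024746), the second alpha gene, had 4654, 3946, 6003 and 6552 normalized counts with vehicle and 2372, 2612, 4300 and 4128 with cortisol. Its values also depended on the day, and within each day the cortisol-treated samples lay below the vehicle-treated ones. Over both days its log2 difference was -0.68 (SE 0.12, limma adjusted p = 0.00425).

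HSP90AB1, the constitutive beta gene, was not called, and its values are coarse. After the authors' scaling, exactly 10 genes lay within 0.1% of each value that this gene had, and it took only 6 levels. It had 71716, 121468, 47665 and 71716 normalized counts in the 4 vehicle-treated WT samples and 23442, 29419, 71716 and 71716 with cortisol. In klf9-/- larvae the values were 121468, 71716, 71716 and 47665 with vehicle and 26492, 29419, 47665 and 47665 with cortisol. The samples of day 1 with cortisol were thus the lowest in both genotypes, and those of day 2 overlapped with or equalled vehicle-treated ones. Neighbouring levels of this gene were 1.11-fold to 1.69-fold apart. The log2 difference was -0.77 (SE 0.38, limma adjusted p = 0.174) in WT and -1.02 (SE 0.38, limma adjusted p = 0.105) in klf9-/- larvae. HSP90B1, the Hsp90 of the ER (GRP94), differed by -0.12 (SE 0.18, limma adjusted p = 0.655) in WT larvae.

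**Figure D1:**
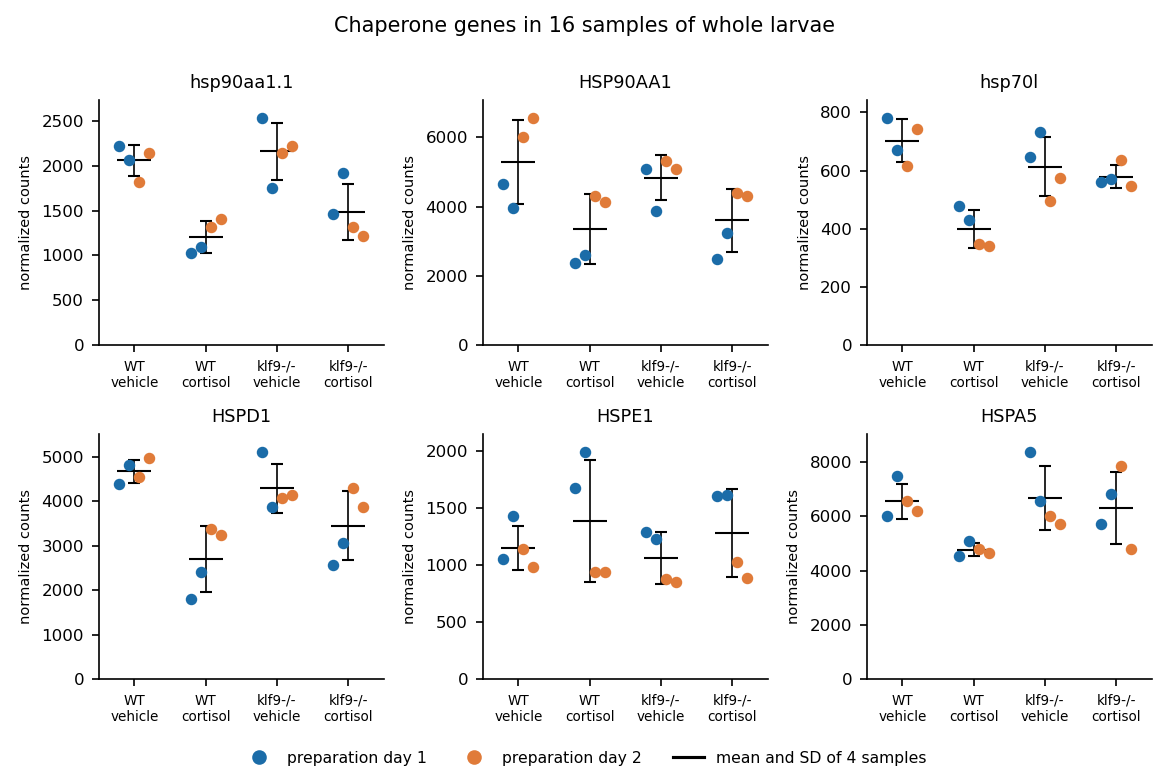
Normalized counts (linear axis from 0) of 6 chaperone genes in the 16 samples, by genotype and treatment; points are samples, blue for day 1 and orange for day 2, and bars give the mean and SD of 4 samples. For hsp90aa1.1, hsp70l, HSPD1 and HSPA5 the 4 cortisol-treated WT samples lie below the 4 vehicle-treated ones, whereas HSPE1 is lower on day 2 than on day 1 in the mean of each condition, with values of the days overlapping.

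Among the Hsp70 genes, hsp70l had the clearest difference. It encodes a stress-inducible Hsp70 and had 780, 670, 615 and 744 normalized counts in vehicle-treated WT samples against 479, 429, 346 and 342 with cortisol. The groups did not overlap, and the fitted log2 difference was -0.82, which is 43.5% lower on the linear scale (SE 0.11, limma adjusted p = 0.000417). HSPA5 (BiP), the Hsp70 of the ER, fell from 6007, 7471, 6554 and 6196 to 4540, 5092, 4802 and 4656 normalized counts (log2 difference -0.45, SE 0.14, limma adjusted p = 0.0491). HSPA2 also fell, by 0.56 on the log2 scale (SE 0.16, limma adjusted p = 0.0473). Its values went from 486, 338, 474 and 507 to 302, 357, 272 and 288 normalized counts, and its groups overlapped. This gene was outside the rule for naming genes and is given so that all called members are named.

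The remaining Hsp70 genes were not called in WT larvae, and 6 of these 8 had negative differences. The mitochondrial HSPA9 (mortalin) differed by -0.36 (SE 0.12, limma adjusted p = 0.0704), hsp70.1 by -0.41 (SE 0.15, limma adjusted p = 0.0824) and hsp70.3 by -0.33 (SE 0.14, limma adjusted p = 0.111). The genes hsp70.1 and hsp70.3 are near-identical copies that lie close together, so reads may have been divided between them in the counting. HSPA8 is the constitutive Hsc70 that holds the receptor, and 2 genes carry its symbol without a letter to tell them apart. The abundant one (ENSDARG00000068992) took only the values 29412, 71694 and 121446, in 1, 6 and 9 samples. Each cortisol-treated and vehicle-treated WT group had 2 samples at 71694 and 2 at 121446, levels that are 1.69-fold apart. A change that left the gene on the same level could not be seen, and the step does not bound its size. The other HSPA8 gene (ENSDARG00000037403) had 92, 76, 78 and 92 normalized counts with vehicle and 43, 40, 57 and 72 with cortisol (log2 difference -0.71, SE 0.24, limma adjusted p = 0.0668).

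**Figure D2:**
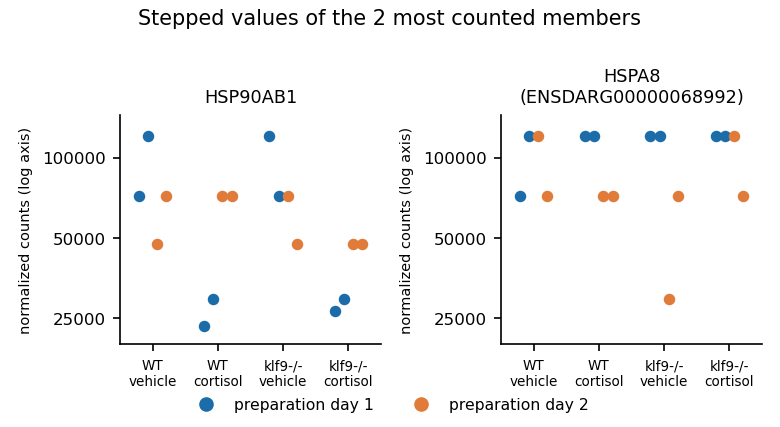
Normalized counts (log axis) of HSP90AB1 and of the abundant HSPA8 gene (ENSDARG00000068992) in the 16 samples; points are samples, blue for day 1 and orange for day 2. HSPA8 occupies 3 levels and HSP90AB1 6 levels, since the authors' scaling leaves few values at the top of the range.

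The Hsp110 genes, whose products reopen Hsp70, fell where they were called. HSPA4 (ENSDARG00000004754) had 1116, 1072, 1116 and 1032 normalized counts in vehicle-treated WT samples and 696, 860, 892 and 846 with cortisol (log2 difference -0.40, SE 0.11, limma adjusted p = 0.0362). Its groups did not overlap. The second gene listed as HSPA4 (ENSDARG00000018989) differed by 0.01 (SE 0.05, limma adjusted p = 0.873). HSPA4L fell by 0.62 on the log2 scale (SE 0.18, limma adjusted p = 0.0462), from 975, 633, 1020 and 1007 to 397, 352, 912 and 895 normalized counts. Its 2 lowest values were both from day 1, and its cortisol-treated samples of day 2 lay above vehicle replicate 2.

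Of the chaperonin pair, HSPD1 was called and HSPE1 was not. HSPD1 (Hsp60) and HSPE1 (Hsp10) form the folding chamber of the mitochondrial matrix, and the genes are direct neighbours on chromosome 9 in the RefSeq annotation (GRCz12tu, used for gene order only). HSPD1 had 4382, 4802, 4540 and 4960 normalized counts in vehicle-treated WT samples and 1802, 2408, 3368 and 3231 with cortisol, with no overlap (log2 difference -0.83, SE 0.15, limma adjusted p = 0.00682). HSPE1 had 1053, 1430, 1148 and 990 with vehicle and 1682, 1991, 944 and 939 with cortisol, higher on day 1 and lower on day 2 (log2 difference 0.20, SE 0.14, limma adjusted p = 0.312).

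Few J-domain genes were called in WT larvae. The cytosolic dnaja1, an Hsp40 partner of Hsc70, fell from 520, 452, 523 and 516 to 320, 354, 456 and 481 normalized counts (log2 difference -0.34, SE 0.09, limma adjusted p = 0.0414). DNAJC6 (auxilin), which recruits Hsc70 to strip clathrin from synaptic vesicles, fell by 0.62 on the log2 scale (SE 0.15, limma adjusted p = 0.0273). DNAJC11 (ENSDARG00000102696), which is linked to mitochondrial cristae in mammals, fell by 0.55 (SE 0.16, limma adjusted p = 0.0429). A second gene with this symbol (ENSDARG00000011196), outside the rule for naming, was not called. It had 561, 562, 459 and 455 normalized counts with vehicle and 536, 565, 434 and 403 with cortisol. The 1 member that rose was dnajc5gb, a relative of the cysteine string protein, with 177, 258, 152 and 145 normalized counts with vehicle and 282, 352, 209 and 173 with cortisol (log2 difference 0.46, SE 0.13, limma adjusted p = 0.0411). Its groups overlapped across days, and within each day the cortisol-treated samples lay above the vehicle-treated ones. The 2 DNAJA2 genes, dnajb1a, dnajb1b and DNAJC7 (a TPR co-chaperone of Hsp70 and Hsp90) differed by -0.19 to 0.11 and none was called.

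Which of these calls rested on single samples was examined by leaving out each of the 16 samples in turn. Here and below, member counts from such fits or other models can be set against all genes only where the share of all genes is given. The calls of hsp90aa1.1, HSP90AA1, hsp70l and HSPD1 held in 16 of 16 fits, with adjusted p of at most 0.0351, 0.0242, 0.00258 and 0.0274 (limma). The other calls were lost in 4 (DNAJC6) to 13 (HSPA2 and HSPA5) of the 16 fits. The number of members called was 4 without WT vehicle replicate 1 or 4 or WT cortisol replicate 1 or 2, 7 without WT vehicle replicate 2 or klf9-/- cortisol replicate 1, and 6 without klf9-/- cortisol replicate 2, compared with 12 in all samples. Within day 1 alone 31 members were called (20 lower) against 30.5% of all genes, and within day 2 alone 5 members, all lower, against 1.69%. Of the 4 genes called in all 16 fits, hsp70l differed by -0.67 on day 1 and -0.98 on day 2, hsp90aa1.1 by -1.02 and -0.54, HSP90AA1 by -0.78 and -0.57, and HSPD1 by -1.14 and -0.53. Without the preparation day as a term, the calls of HSP90AA1 and HSPD1 were lost, at adjusted p of 0.370 and 0.0896 (limma).

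In klf9-/- larvae cortisol lowered 7 members and raised none, against 4.79% of all genes called, 2.31% higher and 2.48% lower. The median log2 difference was -0.058 over the members and -0.006 over all genes. Of these 7 genes, 4 had also fallen in WT larvae: hsp90aa1.1, HSP90AA1, dnaja1 and DNAJC6. They make up 33.3% of the 12 members called in WT larvae, the 1 that rose included, and 57.1% of the 7 called in klf9-/- larvae. The overlap over all genes is not given here, so the overlap of the members has no background to compare with. The gene hsp90aa1.1 had 2528, 1748, 2140 and 2216 normalized counts with vehicle and 1463, 1922, 1315 and 1221 with cortisol, so that cortisol replicate 2 lay above vehicle replicate 2 (log2 difference -0.55, SE 0.14, limma adjusted p = 0.0442). For HSP90AA1 the values were 5090, 3860, 5304 and 5090 with vehicle and 2486, 3230, 4380 and 4300 with cortisol (log2 difference -0.45, SE 0.12, limma adjusted p = 0.0434). The fall of dnaja1, from 530, 478, 550 and 496 to 344, 360, 469 and 461, was the same size as in WT larvae (log2 difference -0.34, SE 0.09, limma adjusted p = 0.0498) and its groups did not overlap.

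The other 3 members called in klf9-/- larvae were DNAJC genes. DNAJC5 (ENSDARG00000004836), the cysteine string protein of synaptic vesicles, fell from 596, 596, 1304 and 1032 to 327, 391, 682 and 748 normalized counts (log2 difference -0.72, SE 0.19, limma adjusted p = 0.0443). In WT larvae the same gene had a log2 difference of -0.57 (SE 0.19, limma adjusted p = 0.0633). DNAJC27, a small GTPase with a J domain, fell by 0.48 (SE 0.12, limma adjusted p = 0.0372) and dnajc5ga by 0.28 (SE 0.08, limma adjusted p = 0.0471). DNAJC6 fell there by 0.63 (SE 0.15, limma adjusted p = 0.0371).

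These calls in klf9-/- larvae were close to the threshold. Each was lost in 6 to 13 of the 16 fits that left out a sample. No member was called in 5 of those fits, without klf9-/- vehicle replicate 1, 2 or 3 or klf9-/- cortisol replicate 1 or 3, and 13 were called without WT vehicle replicate 1. The count was 2 without WT vehicle replicate 2 or 4 or klf9-/- cortisol replicate 2 or 4, and 4 without WT cortisol replicate 3. With the replicate number as a block in place of the day, 6 members were called in WT and 0 in klf9-/- larvae, where the adjusted p of the 7 genes (limma) ran from 0.0502 to 0.0724.

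**Figure D3:**
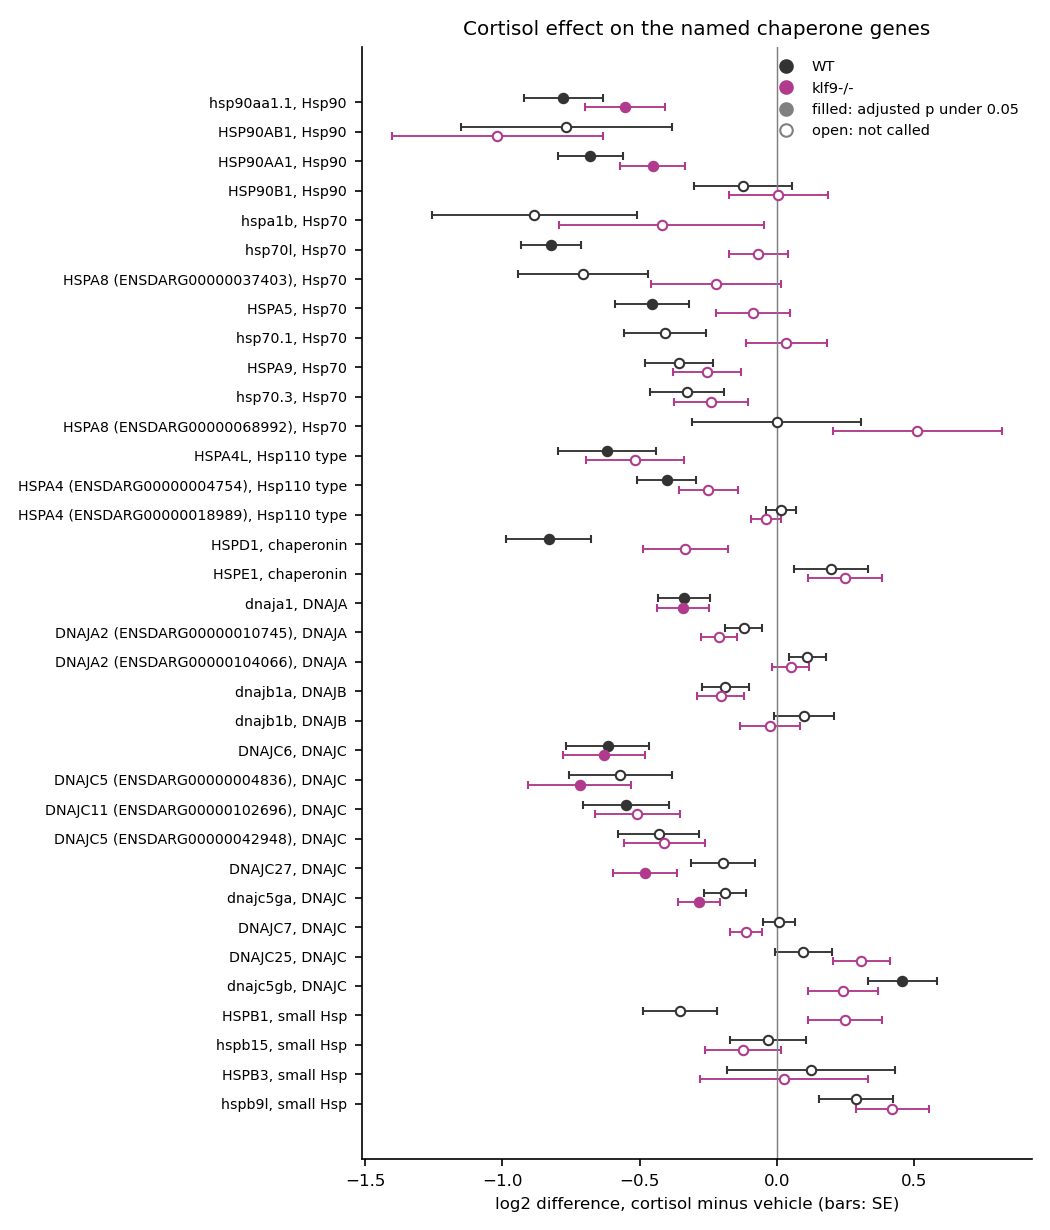
Log2 difference between cortisol and vehicle (x axis, with SE) for the 35 named genes in WT (black) and klf9-/- larvae (magenta), grouped by class; filled points have an adjusted p under 0.05. The Hsp90 alpha genes hsp90aa1.1 and HSP90AA1, dnaja1 and DNAJC6 are filled in both genotypes. Genes filled in a single genotype include hsp70l and HSPD1 in WT and DNAJC27 in klf9-/- larvae. The difference between genotypes did not pass its own test for any member.

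Several genes that fell in WT larvae had smaller differences without klf9, but the difference between the genotypes was not called for any member (0 of 87, against 0.167% of all genes). At an unadjusted p under 0.05 (limma) there were 4 of the 87 members, beside 1233 of the 21511 genes tested. For hsp70l the cortisol difference in klf9-/- larvae was -0.07 (SE 0.11, limma adjusted p = 0.714), with 648, 732, 494 and 576 normalized counts with vehicle and 562, 570, 638 and 548 with cortisol. The interaction, the effect in klf9-/- minus that in WT larvae, was 0.76 (SE 0.15, limma adjusted p = 0.0821). When conditions were given their own means on either day, this interaction had an adjusted p of 0.0200 (limma). It was not called without the preparation day as a term, nor in any of the 16 fits that left out a sample. Without klf9-/- vehicle replicate 1 its adjusted p was 0.175 (limma). HSPD1 differed by -0.33 (SE 0.15, limma adjusted p = 0.171) in klf9-/- larvae, with 5092, 3862, 4064 and 4129 normalized counts with vehicle and 2574, 3068, 4302 and 3862 with cortisol (interaction 0.50, SE 0.22, limma adjusted p = 0.824). HSPB1 (Hsp27) differed by -0.35 in WT and 0.25 in klf9-/- larvae (interaction 0.60, SE 0.19, limma adjusted p = 0.568). Interactions of the 11 Hsp70 genes, some of which are near-identical copies, were positive for 10 and had a median of 0.399. The median was 0.042 over all members and 0.011 over all genes, and 54.0% of all members and 52.4% of all genes had positive interactions. Of the small heat shock protein genes 7 of 10 had positive interactions. Among J-domain genes 5 of 6 DNAJA, 8 of 13 DNAJB and 18 of 32 DNAJC genes had negative ones.

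Between the genotypes, 1 of the 87 members, hspb15, was called in vehicle-treated larvae, against 0.586% of all genes called and 0.218% higher in klf9-/- larvae. At an unadjusted p under 0.05 (limma) there were 8 of the 87 members, beside 2757 of the 21511 genes tested. The small heat shock protein gene hspb15 had 100, 98, 121 and 110 normalized counts in WT samples and 182, 162, 184 and 155 in klf9-/- samples, with no overlap (log2 difference 0.67, SE 0.14, limma adjusted p = 0.0401). With cortisol it had 125, 104, 107 and 86 in WT and 167, 208, 132 and 130 in klf9-/- samples, again without overlap (log2 difference 0.58, SE 0.14, limma adjusted p = 0.0420). All 8 klf9-/- samples thus lay above all 8 WT samples. The gene is on chromosome 5, as is klf9, 167 protein-coding genes away in RefSeq order, so that an effect of the klf9 deletion and of other alleles on the mutant chromosome cannot be told apart. Each of the 2 calls was lost in 9 of 16 fits that left out a sample, in vehicle-treated larvae with adjusted p up to 0.148 (limma).

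With cortisol 3 members were higher in klf9-/- than in WT larvae and none was lower, against 2.08% of all genes called, 0.618% higher and 1.46% lower. Besides hspb15 these were the stress-inducible genes hsp70.1 and hsp70l. For hsp70.1 cortisol-treated WT samples had 70, 89, 92 and 88 normalized counts and cortisol-treated klf9-/- samples 140, 164, 166 and 118, without overlap and with a fitted difference of 1.73-fold (log2 difference 0.79, SE 0.15, limma adjusted p = 0.00982). In vehicle-treated larvae its values were 122, 92, 100 and 139 in WT and 142, 155, 119 and 156 in klf9-/- samples, which overlapped. The call of hsp70.1 held in 16 of 16 fits that left out a sample. Its near-identical copy hsp70.3, with which reads may have been divided, was not called. With cortisol hsp70.3 had 634, 795, 475 and 458 normalized counts in WT and 660, 766, 667 and 500 in klf9-/- samples, which overlapped. The gene hsp70l was higher by a fitted 1.46-fold (log2 difference 0.55, SE 0.11, limma adjusted p = 0.0129), and its groups did not overlap. Without WT cortisol replicate 3 its adjusted p was 0.0517 (limma), and the count of members called was 1 without that sample and 5 without klf9-/- cortisol replicate 4.

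**Figure D4:**
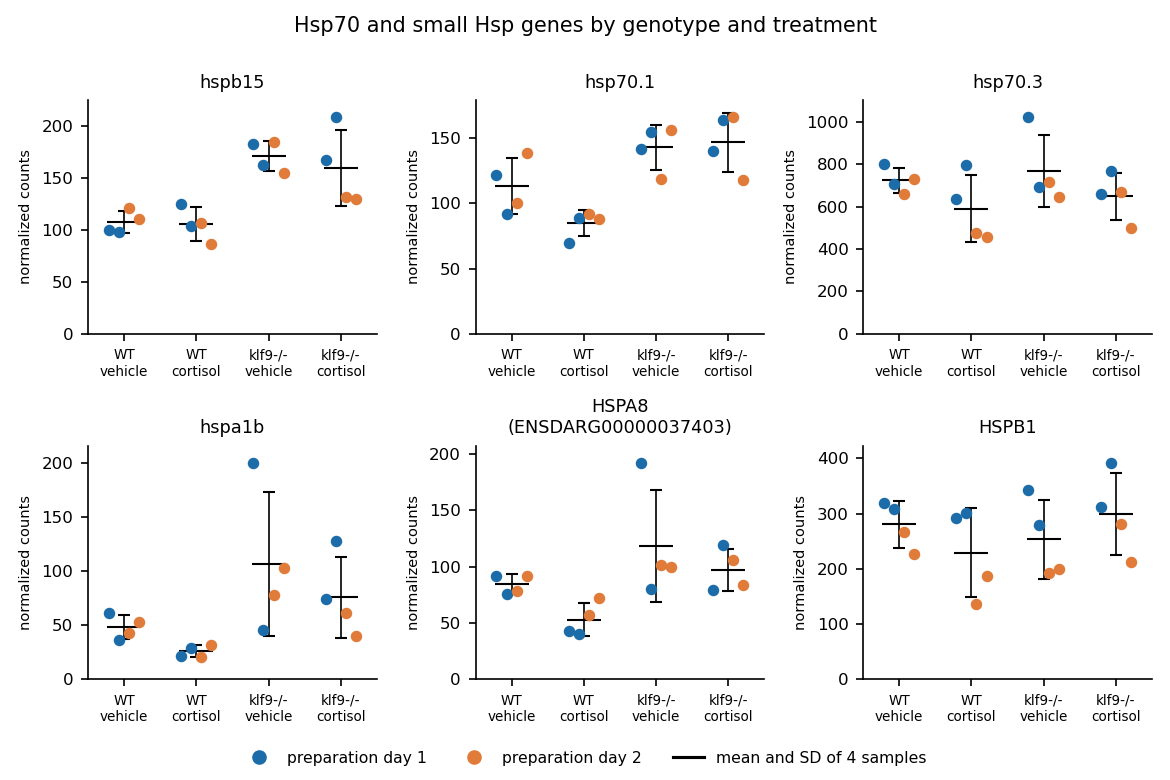
Normalized counts (linear axis from 0) of 4 Hsp70 genes and 2 small heat shock protein genes in the 16 samples, by genotype and treatment; points are samples, blue for day 1 and orange for day 2, and bars give the mean and SD of 4 samples. All klf9-/- samples of hspb15 lie at or above 130, and all WT samples at or below 125. For hsp70.1 the genotypes overlap with vehicle and not with cortisol, but its genotype by cortisol interaction was not called.

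Other Hsp70 genes had positive differences between the genotypes with cortisol that were not called. The gene hspa1b had 22, 29, 21 and 32 normalized counts in cortisol-treated WT samples and 74, 128, 61 and 40 in cortisol-treated klf9-/- samples (log2 difference 1.44, SE 0.37, limma adjusted p = 0.0622). For HSPA8 (ENSDARG00000037403) the log2 difference was 0.89 (SE 0.24, limma adjusted p = 0.0721). Both genes had their highest value in klf9-/- vehicle replicate 1, at 200 and 192 normalized counts, where hsp70.3 also had its highest, 1020. The same sample held the highest value of HSPA5 (8356), HSPD1 (5092), hsp90aa1.1 (2528), HSPA2 (682) and dnaja (590). Without it the cortisol difference in klf9-/- larvae was -0.47 for hsp90aa1.1 (limma adjusted p = 0.126), whose call was thus lost, and -0.19 for HSPD1 (limma adjusted p = 0.457), and the interaction was 0.31 (limma adjusted p = 0.792) and 0.64 (limma adjusted p = 0.456).

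The scarcely counted HSPA12 genes hspa12a.1 and hspa12a.2, which lie outside the rule for naming and were picked for their values, are given by their values alone. With cortisol hspa12a.1 had 18, 13, 11 and 7 normalized counts in WT and 2, 0, 1 and 1 in klf9-/- samples, and hspa12a.2 had 17, 14, 13 and 10 against 4, 0, 2 and 1. With vehicle the values of hspa12a.1 were 11, 8, 5 and 1 in WT and 0, 3, 1 and 0 in klf9-/- samples, and those of hspa12a.2 were 9, 16, 7 and 6 against 4, 1, 0 and 2. Both genes reached the limit of a mean of 5 normalized counts through the WT samples alone, so no test of these differences is given here.

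The preparation day moved more members than any condition, as it did all genes. Between day 2 and day 1, 54 of the 87 members were called, 18 higher and 36 lower, beside 63.1% of all genes, 30.3% higher and 32.8% lower. The share called, 62.1%, was close to the background, and the share lower, 41.4%, above it. The median log2 difference was -0.148 over the members and -0.039 over all genes. Of the 10 small heat shock protein genes, 5 were lower on day 2 and none was higher, and all 6 DNAJA genes were called, 2 higher and 4 lower. Markers of several cell types moved with the day: 4 of 4 lens markers were higher on day 2, and 6 of 8 liver, 3 of 3 erythrocyte, 3 of 3 macrophage and 3 of 3 neutrophil markers were lower. Their summed levels ranged from 20670 to 67413 on day 1 and 51096 to 69009 on day 2 for lens, from 49533 to 61632 and 36867 to 58924 for liver, from 6584 to 17415 and 6581 to 10832 for erythrocytes, from 408 to 923 and 299 to 594 for macrophages, and from 770 to 1814 and 488 to 891 for neutrophils. Of 7 fast muscle markers 3 were higher and 1 was lower on day 2, and 2 of 4 exocrine pancreas and 1 of 4 skin markers were lower. All these counts are of the markers that were matched by symbol. The part of the markers in the day differences of the members was not tested.

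**Figure D5:**
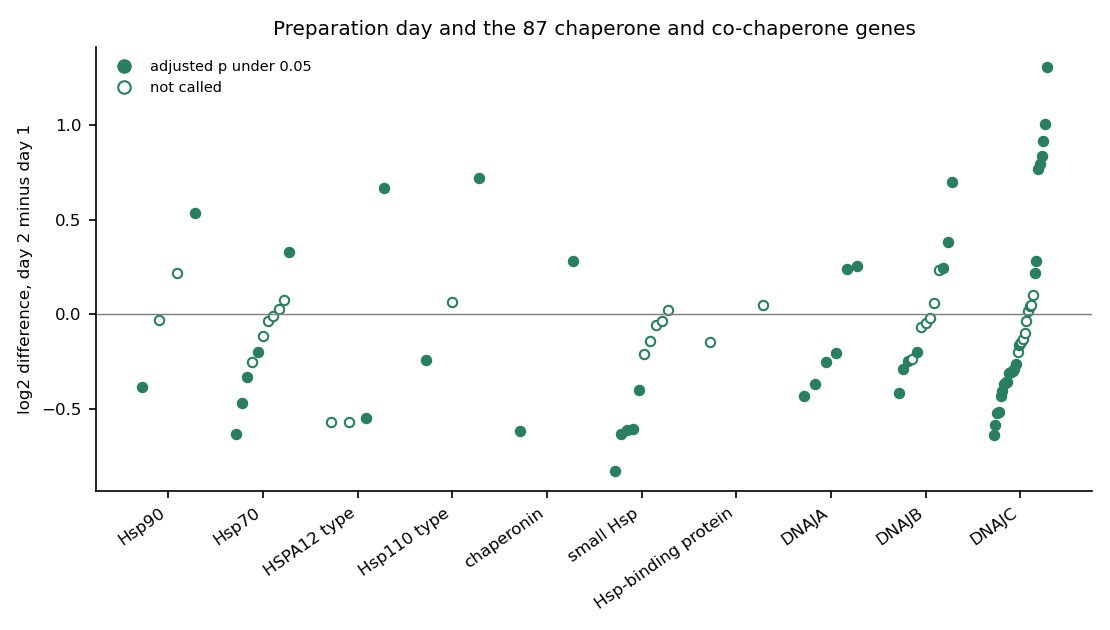
Log2 difference between day 2 and day 1 (y axis) for the 87 members, by class; each point is a gene, filled where the adjusted p was under 0.05. The DNAJC class spreads widest, from -0.64 to 1.31, and the called small heat shock protein genes all lie below 0.

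The largest day differences upward were in J-domain genes. DNAJC6 was 2.48-fold higher on day 2 (log2 difference 1.31, SE 0.11, limma adjusted p = 9.99e-07), with 391 to 996 normalized counts in the 8 samples of day 1 and 1108 to 1802 in the 8 of day 2. DNAJC5 (ENSDARG00000004836) was higher by 1.00 (SE 0.13), DNAJC11 (ENSDARG00000102696) by 0.92 (SE 0.11), DNAJC27 by 0.84 (SE 0.08) and the second DNAJC5 gene (ENSDARG00000042948) by 0.79 (SE 0.10). The other DNAJC11 gene (ENSDARG00000011196) went the other way and was called lower on day 2. Its normalized counts were 511 to 565 on day 1 and 396 to 459 on day 2. DNAJC5 and DNAJC6 work at the synapse, and neuron markers moved with them: 3 of the 4 that were matched by symbol were higher on day 2, and their summed level was 5152 to 11275 normalized counts in the samples of day 1 and 11999 to 17112 in those of day 2. The same markers were lower with cortisol, 2 of 4 called in WT and 1 of 4 in klf9-/- larvae, with sums of 7974 to 16328 in vehicle-treated and 5152 to 15121 in cortisol-treated WT samples. The part of the neuron markers in the values of DNAJC5 and DNAJC6 was not tested.

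The largest differences downward were in HSPB3, a small heat shock protein of muscle (log2 difference -0.83, SE 0.22), in DNAJC25 (-0.64, SE 0.07), in the abundant HSPA8 gene (ENSDARG00000068992; -0.64, SE 0.22, on its 3 levels), in hspb9l (-0.63, SE 0.09) and in HSPE1 (-0.62, SE 0.10). HSPE1 had 1053 to 1991 normalized counts on day 1 and 854 to 1148 on day 2, whereas its partner HSPD1 was higher on day 2 by 0.28 (SE 0.11, limma adjusted p = 0.0325). This call of HSPD1 was lost in 6 of 16 fits that left out a sample, with adjusted p up to 0.0746 (limma).

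The cortisol difference itself depended on the day in WT larvae for 16 of 87 members, more positive on day 2 for 9 and more negative for 7, against 16.1% of all genes called (8.31% higher and 7.83% lower). For HSPA9 cortisol-treated WT samples had 1922 and 1968 normalized counts on day 1 and 3306 and 3176 on day 2, beside 3561, 2906, 3120 and 3306 with vehicle (difference between days 0.74, SE 0.14, limma adjusted p = 0.00814). Its low values were thus confined to the 2 samples of day 1 among the 4 treated WT samples. For hspb9l the cortisol-treated WT samples had 901 and 916 on day 1 and 426 and 455 on day 2, beside 510, 648, 484 and 450 with vehicle (difference between days -0.74, SE 0.17, limma adjusted p = 0.0167). HSP90AB1 had the largest such difference, 2.12 (SE 0.41, limma adjusted p = 0.00784), on its stepped values. In klf9-/- larvae 0 members were called in limma, against 0.167% of all genes (0.139% higher and 0.0279% lower). At an unadjusted p under 0.05 (limma) there were 16 of the 87 members, beside 3221 of the 21511 genes tested. The count of 16 in WT larvae was 4 without WT vehicle replicate 1 or WT cortisol replicate 3, 6 without WT vehicle replicate 3 or WT cortisol replicate 2 or 4, 10 without WT cortisol replicate 1 and 26 without WT vehicle replicate 2.

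Partners of these chaperones that lie outside the 87 genes were examined from fixed lists. Of 14 further genes of the receptor's chaperone cycle, NR3C1 and NR3C2 included, 2 fell with cortisol in WT larvae and 1 in klf9-/- larvae, and none rose. Over all genes 3.99% were called lower in WT and 2.48% in klf9-/- larvae. The list median was -0.077 in WT and -0.127 in klf9-/- larvae, beside -0.031 and -0.006 over all genes. STIP1, the adaptor between Hsp70 and Hsp90, fell by 0.32 in both (limma adjusted p = 0.0244 in WT and 0.0356 in klf9-/- larvae). FKBP4 fell by 0.26 in WT larvae (SE 0.07, limma adjusted p = 0.0419), from 1418 ± 62.2 to 1186 ± 76.4 normalized counts (SD, n = 4). In klf9-/- larvae FKBP4 differed by -0.20 and was not called (SE 0.07, limma adjusted p = 0.097). The receptor gene NR3C1 itself had 825.8 ± 8.26 with vehicle and 812 ± 56.9 with cortisol in WT larvae (SD, n = 4; log2 difference -0.03, limma adjusted p = 0.786). FKBP5, a common target of the receptor, had 474.5 ± 240 and 686.8 ± 231 normalized counts (SD, n = 4; log2 difference 0.61, SE 0.41, limma adjusted p = 0.304).

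Of 2 myosin chaperone genes, UNC45B, which works with hsp90aa1.1, fell in both genotypes. It fell by 0.75 (SE 0.12, limma adjusted p = 0.00301) in WT and 0.57 (SE 0.12, limma adjusted p = 0.0328) in klf9-/- larvae. The other gene was not called, with log2 differences of -0.25 in WT and 0.06 in klf9-/- larvae. Of 7 fast muscle markers none was called with cortisol in either genotype, with summed levels of 719856 to 730732 in vehicle-treated and 594370 to 729985 normalized counts in cortisol-treated WT samples; many of these markers are at the top of the range, where values are stepped. Of 17 ER stress genes, the ER lectin chaperone CALR fell by 0.38 (limma adjusted p = 0.0352) and atf4b by 0.24 (limma adjusted p = 0.0472) in WT larvae, and EDEM1, which acts in ER-associated degradation, rose by 0.56 (limma adjusted p = 0.0186). In klf9-/- larvae CALR fell by 0.36 (limma adjusted p = 0.0491) and XBP1, a transcription factor of the unfolded protein response, rose by 0.30 (limma adjusted p = 0.0458). Of 6 mitochondrial proteostasis genes the protease LONP1 fell in WT larvae, by 0.39 (SE 0.08, limma adjusted p = 0.0140), and none of 6 heat shock factor and target genes was called with cortisol or between the genotypes. For hsf1, heat shock factor 1, the cortisol difference was -0.25 (SE 0.11, limma adjusted p = 0.127) in WT larvae.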

How the data were processed

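RNA-seq was measured in 16 samples of whole zebrafish larvae, 4 per condition. Per the labels and the study's methods, the authors trimmed reads with Trimmomatic 0.38, aligned them with STAR 2.6.1b to GRCz11 and counted them with RSEM 1.3.0. The deposited values are log2 of normalized counts plus 0.1, normalized by the authors with EDASeq for GC content within samples and by full quantiles between samples, so samples share the same sorted values and the depth behind each is unknown. Errors come from replicate spread alone. No 2 samples were duplicates: the most alike pair differed in 21224 genes.

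The 21511 genes averaging 5 or more normalized counts entered limma 3.58.1 (R 4.3.3), with condition means, preparation day and an eBayes trend, all 16 samples sharing one spread, two-sided. Cortisol-by-day tests used separate means for each condition and day. The model was tested on simulated data with independent residuals and an additive day effect, but without dish or cortisol-by-day effects. Python 3.11.15, pandas 2.3.3 and matplotlib 3.10.9 made summaries and figures.

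Members and lists were chosen with earlier results of these data known. Named genes were a fixed list by role, up to 15 members called in the condition comparisons with the smallest adjusted p (17 were called), and the 5 largest day differences each way, 35 in all. Same-numbered samples' deviations from condition means correlated (median r 0.447 over 24 pairs) but not after removing the day (0.004), so the main fits used the day and no pairing. The day cannot be told apart from the order of collection. With 2 samples per condition and day, their deviations mirror each other, which limits this check. Alternatives were 10 counts added, no filter, a mean of at least 75, median centring, no day, replicate block, separate means, only the 8 samples compared, each day alone and each sample left out. Paralogs sharing a symbol are named with their Ensembl identifier, and sequences were not used here.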

Additional observations from a re-analysis of the deposited data

Results flagged for a closer look

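In 5 of 140 combinations of a named gene and a condition, 1 of the 4 samples stood apart from the others by Dixon's criterion. Chance gives about 5% where the 4 samples are alike. Here they came from different preparation days, so this count cannot be set against the 5%. HSP90AA1 had 3860 normalized counts in klf9-/- vehicle replicate 2 against 5090 to 5304 in the other replicates. For hsp70.1, WT cortisol replicate 1 had 70 against 88 to 92. WT vehicle replicate 2 was low for dnaja1, at 452 against 516 to 523, and for HSPA4L, at 633 against 975 to 1020. The abundant HSPA8 gene (ENSDARG00000068992) had 71694 in klf9-/- cortisol replicate 4 and 121446 in the other replicates, which is 1 step of its scale.

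For 16 members the cortisol difference in WT larvae differed between the preparation days (day 2 minus day 1, limma, adjusted p under 0.05), beside 16.1% of all genes. It was more positive on day 2 for HSP90AB1 (2.12), DNAJC5 (ENSDARG00000004836; 1.06), HSPB7 (0.99), DNAJC22 (0.93), HSPA4L (0.91), HSPA12A (0.86), DNAJC16 (ENSDARG00000059699; 0.76), HSPA9 (0.74) and DNAJC5 (ENSDARG00000042948; 0.64). It was more negative on day 2 for DNAJC12 (-1.31), HSPE1 (-0.76), hspb9l (-0.74), DNAJC9 (-0.69), DNAJC15 (-0.59), HSPA14 (-0.57) and DNAJC1 (-0.41). The differences of HSPA9, HSP90AB1 and DNAJC12 held in each of the 16 fits that left out a sample, and each of the others was lost in 1 to 13 of them. Each of these values rests on 2 samples per condition and day.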

How the results depend on the processing

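Counts of members called depended on the model more than on filters or scaling. These counts are listed without the share of all genes called under the same setting, and so do not compare members with all genes. With cortisol in WT larvae (12 called), the count was 2 without the preparation day, 6 with the replicate block, 28 with separate means for the 8 combinations of condition and day, 5 with only the 8 samples compared, 31 in day 1 alone and 5 in day 2 alone. In klf9-/- larvae (7 called) these counts were 0, 0, 19, 13, 2 and 2. Between genotypes with vehicle (1 called), the count was 2 with 10 counts added, 0 without the day, 0 with the replicate block and 0 in either day alone. The gene that joined hspb15 with 10 counts added was hspa12a.2, which passed the limit on low values through WT samples alone. With cortisol (3 called) the count was 5 with 10 counts added, 1 without the day, 7 with only the 8 samples compared and 0 in day 1 alone. Here hspa12a.1 and hspa12a.2 joined with 10 counts added, and both passed the limit on low values through WT samples alone. No result is drawn from the calls of these 2 genes. The interaction count rose from 0 to 1 with separate means. The cause was not tested. Leaving out each sample gave 4 to 15 calls with cortisol in WT, 0 to 13 in klf9-/- larvae, 0 to 1 and 1 to 5 between genotypes with vehicle and cortisol, 0 for the interaction, 50 to 55 between days, 4 to 26 for cortisol by day in WT and 0 to 1 in klf9-/- larvae. No named gene's call changed direction under any alternative run. Depth is unknown, and the values of the most counted genes move in steps.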
